A study of Homo sapiens with 12 samples.

Results

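The 9 genes described here encode the entry gate of the cell cycle: the D-type cyclins *CCND1*, *CCND2* and *CCND3*, their kinase partners *CDK4* and *CDK6*, the inhibitors *CDKN1B*, *CDKN2C* and *CDKN2D*, and their substrate *RB1*. They were taken by gene symbol from the count tables of 2 human B-cell leukemia lines, which together hold 23533 genes (22441 in MEC1 and 17144 in JVM2), and all 9 members were found in both tables and passed the filter on low counts in both. RNA was sequenced from 12 libraries, 3 biological replicates of each of 4 groups. MEC1-2B17 and JVM2-2B17 cells carried the coding sequence of *UGT2B17*, an enzyme that conjugates steroids and other lipids to glucuronic acid, in the pcDNA6 vector and were grown in blasticidin. In JVM2-CTRL the vector was empty and the antibiotic the same, whereas MEC1-CTRL cells carried an shRNA that stably repressed *UGT2B17* and were grown in puromycin. The MEC1 arms thus differed in construct and antibiotic as well as in *UGT2B17*, and these cannot be told apart. Promoters, integration sites and the clonality of the populations were not given in the sources used here.

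D-type cyclins are unstable proteins made in response to growth signals. They bind CDK4 or CDK6, and the active pair phosphorylates the RB1 protein, which then lets go of E2F transcription factors, so that cyclin E, CDK2 and the genes of DNA replication are switched on. The INK4 proteins, among them the products of *CDKN2C* and *CDKN2D*, block CDK4 and CDK6 directly, while the product of *CDKN1B* inhibits cyclin E with CDK2 and can also be held by cyclin D complexes. *CCND1* is the gene placed beside the immunoglobulin heavy chain locus by the translocation of mantle cell lymphoma, a rearrangement described in the JVM-2 line. *CCND2* and *CCND3* are the D-type cyclins that normal B cells use.

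Libraries held 31762649 to 37744991 counts in MEC1 and 8809179 to 11231330 in JVM2, so a gene at the same relative level rested on more counts in MEC1. Levels are given as CPM, counts relative to the TMM-scaled size of the library. *UGT2B17* was measured at 10.4 to 11.7 CPM in MEC1-CTRL and 20.1 to 22.7 CPM in MEC1-2B17 (log2 fold change 0.94, edgeR adjusted *P* = 2.02e-09), and at 26.2 to 29.7 CPM in JVM2-CTRL and 35.2 to 45.2 CPM in JVM2-2B17 (log2 fold change 0.48, adjusted *P* = 0.00481). All 5 B-cell markers given here (*MS4A1*, *CD79A*, *CD79B*, *CD22* and *PAX5*) were present in every group, at group means from 57.0 to 911 CPM. They also moved between arms, with 2 higher and 3 lower in MEC1-2B17 and 2 higher and 1 lower in JVM2-2B17, and their part in the results was not tested. Over all genes tested, 20.0% were higher and 21.6% lower in MEC1-2B17, and 14.1% and 15.3% in JVM2-2B17. Of the T-cell genes, *CD3E* and *CD3G* had at most 5 counts in any MEC1 library, while *TRAC* stood at 18.7 CPM in MEC1-CTRL and 46.6 CPM in JVM2-CTRL and was lower in 2B17 cells of both lines (11.5 CPM, log2 fold change -0.70, edgeR adjusted *P* = 2.50e-08, and 37.1 CPM, -0.33, adjusted *P* = 0.0218). Of the myeloid genes, *CD14* had at most 5 counts, *LYZ* 18 and *CSF1R* 34 in any MEC1 library, and *LYZ* and *CSF1R* had at most 5 and 13 in any JVM2 library. *CSF1R* was called lower in MEC1-2B17 (0.781 to 0.481 CPM, adjusted *P* = 0.0415). The part of *TRAC* and *CSF1R* in the results was not tested. A pair of libraries stood apart from the others of their arm: MEC1-CTRL replicate 3, with a mean chi-square per gene of 8.41 and 6.77 against its partners where these gave 2.50 between them, and JVM2-2B17 replicate 2, with 8.35 and 8.58 where its partners gave 2.24. To a smaller extent, JVM2-CTRL replicate 1 (5.34 and 3.30, against 2.33 between its partners) and MEC1-2B17 replicate 2 (3.58 and 3.75, against 2.42) also stood apart. Counts of members that change without the pair named first are given beside each result. For *CDKN1B* and *RB1* in JVM2, values without JVM2-CTRL replicate 1 are given with those genes. In bulk RNA, fewer cells that express a gene and less transcript per cell cannot be told apart.

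The lines differed in which D-type cyclin they expressed, and *CCND1* and *CCND2* differed by the largest folds among the members. On a scale common to the 12 libraries, *CCND1* was measured at 450 CPM ± 10.1 (SD, n = 3) in JVM2-CTRL and 13.0 CPM ± 1.24 in MEC1-CTRL. *CCND2* was measured at 496 CPM ± 21.4 in JVM2-CTRL and 22.3 CPM ± 0.573 in MEC1-CTRL. *CCND3* was measured at 41.3 CPM ± 0.872 in JVM2-CTRL and 35.9 CPM ± 0.397 in MEC1-CTRL. In both *CCND1* and *CCND2* every JVM2 library lay far above every MEC1 library, while *CCND3* differed far less between these groups. In edgeR's quasi-likelihood fit of all libraries, *CCND1* was 34.7-fold higher in JVM2-CTRL than in MEC1-CTRL (log2 difference MEC1 minus JVM2 -5.12 ± 0.065 SE, adjusted *P* = 2.29e-23) and *CCND2* 22.3-fold higher (-4.48 ± 0.064, adjusted *P* = 1.27e-22). *CCND3* was 1.15-fold higher (-0.20 ± 0.062, adjusted *P* = 0.00571), a call that was lost when scaling by library size only (-0.040, adjusted *P* = 0.552) or when 10 counts were required in every library (-0.13, adjusted *P* = 0.0577). Called differences between the lines, of any size, were common: 78.3% of 15130 genes tested differed between the CTRL groups and 77.1% between the 2B17 groups, against 8 of 9 and 9 of 9 members.

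**Figure D1:**
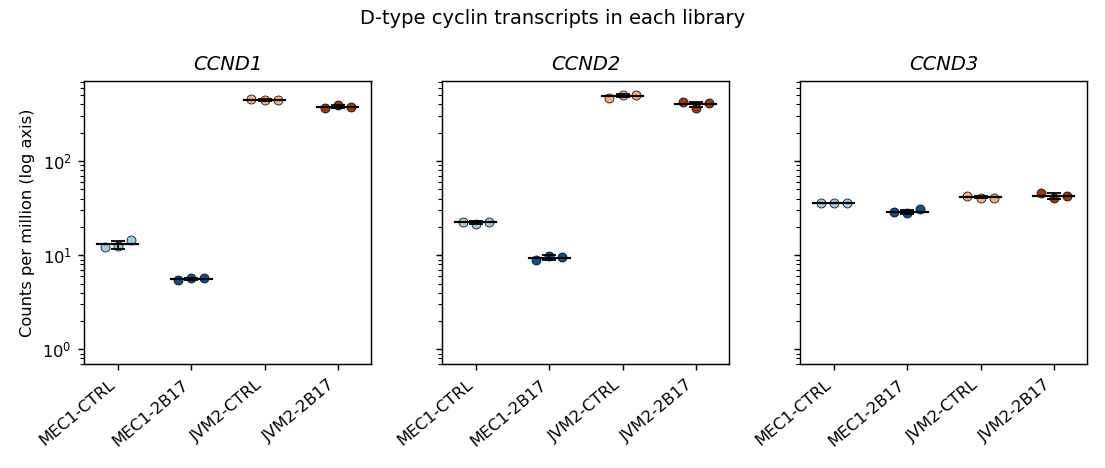
CPM of the D-type cyclins in each of the 12 libraries, on the scale common to them and a log axis; points are libraries, lines the mean and bars the SD of 3 replicates. *CCND1* and *CCND2* have group means of 379 to 496 CPM in JVM2 and 5.64 to 22.3 CPM in MEC1, with the MEC1-2B17 libraries lowest, and *CCND3* lies between 29.1 and 42.7 CPM in all group means.

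To compare the cyclins with each other, counts were divided by the length of each gene's annotated exons (4.76 kb for *CCND1*, 7.99 kb for *CCND2* and 5.76 kb for *CCND3*). In JVM2-CTRL, *CCND1* held 56.7% to 59.3% of the summed D-type cyclin counts per kilobase, *CCND2* 36.2% to 39.0% and *CCND3* 4.30% to 4.50%. In MEC1-CTRL, *CCND3* held 51.7% to 54.2%, *CCND2* 23.3% to 24.6% and *CCND1* 22.1% to 25.0%. JVM2 cells thus carried mostly *CCND1* and *CCND2* transcripts and MEC1 cells mostly *CCND3*. The summed level of the D-type cyclins was 164 CPM per kb ± 0.797 (SD, n = 3) in JVM2-CTRL and 11.8 ± 0.306 in MEC1-CTRL, so the share of *CCND3* in MEC1 was a share of a small total.

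The arms differed in these shares in MEC1. The *CCND3* share rose from a mean of 53.1% ± 1.26 in MEC1-CTRL to 68.1% ± 1.36 in MEC1-2B17, a difference of 15.01 percentage points, while those of *CCND1* and *CCND2* moved by -7.24 and -7.76 points. No share of any D-type cyclin overlapped between the MEC1 arms (exact two-sided permutation test, *P* = 0.1 for each, the smallest *P* that 3 against 3 libraries can give). In JVM2, the shares of *CCND1* (57.7% ± 1.42 in CTRL and 58.0% ± 2.63 in 2B17, exact permutation *P* = 0.9) and *CCND2* (37.9% ± 1.53 and 36.6% ± 2.37, exact permutation *P* = 0.5) overlapped between arms. The *CCND3* share was 4.38% ± 0.108 in JVM2-CTRL and 5.40% ± 0.314 in JVM2-2B17, without overlap (exact permutation *P* = 0.1). With the longest annotated transcript (2.39 kb for *CCND3*) in place of all exons, *CCND3* took 70.4% in MEC1-CTRL and 81.8% in MEC1-2B17, and 8.80% and 10.8% in the JVM2 groups, so *CCND3* came first in MEC1 and last in JVM2 by this measure as well. With no division by length, *CCND2* rather than *CCND1* held the largest part in JVM2 (50.2% against 45.6% in CTRL and 48.7% against 46.1% in 2B17).

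**Figure D2:**
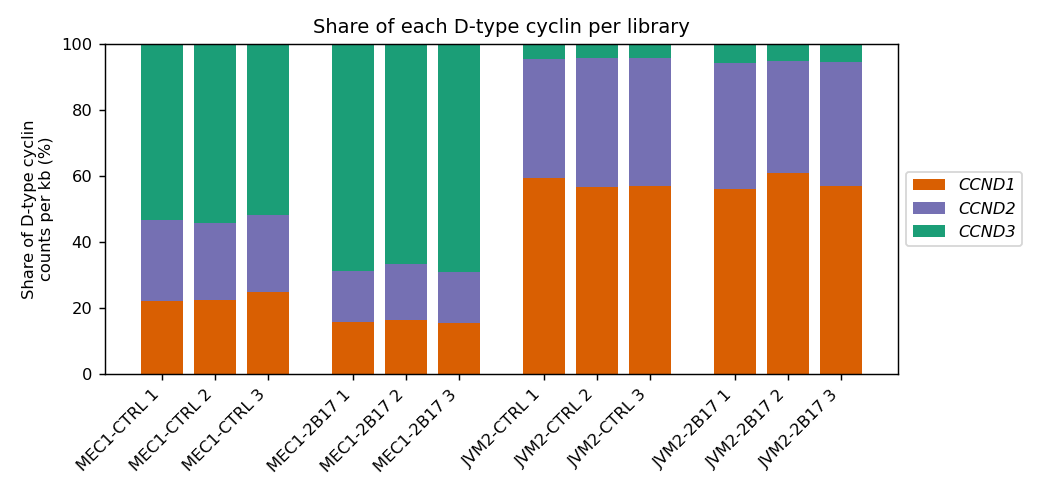
Share of *CCND1*, *CCND2* and *CCND3* in the summed D-type cyclin counts per kilobase of exon (percent, y axis) in each library (x axis). *CCND3* is the widest band in the 6 MEC1 libraries, at 51.7% to 68.9%, and the narrowest in the 6 JVM2 libraries, at 4.30% to 5.74%.

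Within MEC1, 2B17 cells had less D-type cyclin RNA of every kind. *CCND1* was measured at 12.8, 13.1 and 15.2 CPM in the MEC1-CTRL libraries and at 5.74, 5.999 and 6.02 CPM in MEC1-2B17. *CCND2* was measured at 23.8, 22.8 and 23.7 CPM in MEC1-CTRL and at 9.32, 10.4 and 10.1 CPM in MEC1-2B17. *CCND3* was measured at 37.3, 38.1 and 38.1 CPM in MEC1-CTRL and at 30.1, 29.3 and 32.2 CPM in MEC1-2B17. In each of the 3 genes, every 2B17 library lay below every CTRL library. *CCND1* fell to 0.433 of its CTRL level (log2 fold change -1.21 ± 0.086 SE, adjusted *P* = 1.43e-09), *CCND2* to 0.423 (-1.24 ± 0.063, adjusted *P* = 1.37e-11) and *CCND3* to 0.808 (-0.31 ± 0.049, adjusted *P* = 5.03e-05). These calls held under each of the 13 alternatives, with log2 fold changes from -1.26 to -1.13, from -1.27 to -1.19 and from -0.34 to -0.27. The summed level of the D-type cyclins was 7.42 CPM per kb ± 0.279 in MEC1-2B17, below that of every MEC1-CTRL library.

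Within JVM2, the abundant cyclins were also lower in 2B17 cells, by a smaller fold. *CCND1* was measured at 431, 414 and 419 CPM in the JVM2-CTRL libraries and at 345, 367 and 350.4 CPM in JVM2-2B17. *CCND2* was measured at 440.2, 477 and 475 CPM in JVM2-CTRL and at 393, 342 and 390 CPM in JVM2-2B17. *CCND3* was measured at 39.5, 38.3 and 38.1 CPM in JVM2-CTRL and at 42.7, 37.3 and 39.8 CPM in JVM2-2B17. The arms were separate for *CCND1* and *CCND2* and overlapped for *CCND3*. *CCND1* fell to 0.841 of its CTRL level (log2 fold change -0.25 ± 0.053, adjusted *P* = 0.00352) and *CCND2* to 0.808 (-0.31 ± 0.065, adjusted *P* = 0.00368). *CCND3* was not called (0.050 ± 0.076, adjusted *P* = 0.66), with a 95% confidence interval from -0.11 to 0.22. The summed D-type cyclins stood at 137 CPM per kb ± 0.971 in JVM2-2B17.

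The change differed between the lines for each D-type cyclin. In the test of the difference itself (the interaction of line and arm), the log2 fold change in MEC1 minus that in JVM2 was -0.95 ± 0.092 for *CCND1* (adjusted *P* = 8.22e-08), -0.93 ± 0.088 for *CCND2* (adjusted *P* = 6.84e-08) and -0.35 ± 0.088 for *CCND3* (adjusted *P* = 0.00391). In all, 7 of 9 members passed this test, against 32.0% of 15130 genes. In 2B17 cells the gap between the lines was accordingly 67.1-fold for *CCND1* and 42.4-fold for *CCND2*. JVM2-2B17 cells still held more of both transcripts than any MEC1 library, at 379 CPM ± 14.5 and 401 CPM ± 28.6 on the common scale. *CCND3* was 1.47-fold higher in JVM2-2B17 than in MEC1-2B17 (42.7 against 29.1 CPM on the common scale, log2 difference MEC1 minus JVM2 -0.56 ± 0.063, adjusted *P* = 8.24e-08), a call that held under all 19 alternatives.

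Of the 9 members, 1 was called higher (*CDK6*) and 7 lower in MEC1-2B17, where 20.0% of 16581 genes tested were called higher and 21.6% lower. The members' median log2 fold change was -0.31, against 0.0026 over all genes. In JVM2-2B17 edgeR called 0 members higher (2 at an unadjusted *P* under 0.05 and 0 by DESeq2) and 3 lower (*CCND1*, *CCND2* and *CDK6*), where 14.1% of 13021 genes were called higher and 15.3% lower, with a median of -0.11 among the members and 0.00012 over all genes. Without MEC1-CTRL replicate 3, 6 members were called in MEC1, as were 6 without MEC1-CTRL replicate 2 and 6 by DESeq2, the calls lost being those of *CDK6* and *CDKN1B*. Without JVM2-2B17 replicate 2, 5 members were called in JVM2, *CDKN1B* and *RB1* being added, both higher.

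**Figure D3:**
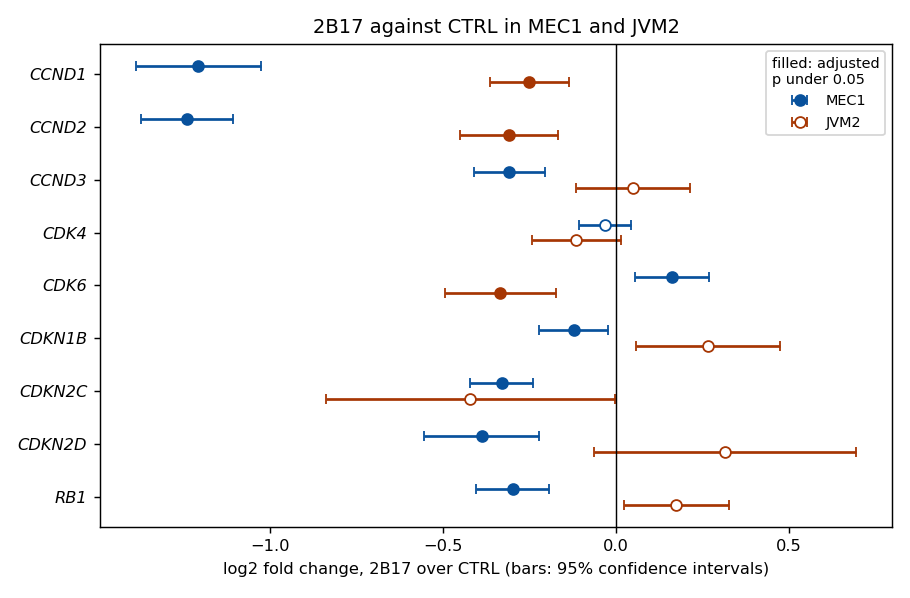
Log2 fold change of 2B17 over CTRL (x axis) of each member (y axis) in MEC1 (blue) and JVM2 (brown), with bars of 95% confidence intervals; filled points have an adjusted *P* under 0.05. *CCND1* and *CCND2* lie near -1.2 in MEC1 and near -0.3 in JVM2. *CCND3*, *CDK6*, *CDKN1B*, *CDKN2D* and *RB1* lie on opposite sides of 0 in the 2 lines, *CCND3* close to 0 in JVM2 (0.050).

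The kinases differed less between the lines than *CCND1* and *CCND2* did. *CDK4* was measured at 208, 206 and 215 CPM in MEC1-CTRL and at 208, 199.98 and 208 CPM in MEC1-2B17. In JVM2 it was measured at 242, 223 and 225 CPM in CTRL and at 222, 209 and 207 CPM in 2B17. The MEC1 arms overlapped and the JVM2 arms did not, but neither difference passed the test (log2 fold change -0.030 ± 0.036, adjusted *P* = 0.538, and -0.11 ± 0.059, adjusted *P* = 0.169). The 95% confidence intervals reached from -0.11 to 0.045 in MEC1 and from -0.24 to 0.014 in JVM2, and between the lines they differed by 0.088 ± 0.069 (adjusted *P* = 0.362). *CDK4* was 1.24-fold higher in JVM2-CTRL than in MEC1-CTRL (adjusted *P* = 9.03e-06).

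*CDK6*, the kinase used alongside *CDK4* in blood cells, was called in opposite directions in the lines, though its MEC1 call was lost in 5 of 13 alternatives. It was measured at 374, 334 and 314 CPM in MEC1-CTRL and at 397, 386 and 362 CPM in MEC1-2B17, with overlapping arms. It was measured at 255, 311 and 301 CPM in JVM2-CTRL and at 227, 222 and 239 CPM in JVM2-2B17, where every 2B17 library was below every CTRL library. *CDK6* rose by 0.16 ± 0.051 on the log2 scale in MEC1 (adjusted *P* = 0.0143) and fell by 0.33 ± 0.074 in JVM2 (adjusted *P* = 0.00466). The MEC1 call was lost with DESeq2 (adjusted *P* = 0.122), so also where both tools were required, and without MEC1-CTRL replicate 2 (0.0584), MEC1-CTRL replicate 3 (0.066, with a log2 fold change of 0.11) or MEC1-2B17 replicate 1 (0.071), within a range over its alternatives of 0.00019 to 0.122, whereas the JVM2 call held under all 13. The difference between the lines was 0.50 ± 0.098 (adjusted *P* = 0.00047) and passed under all 19 alternatives. The CTRL groups had similar levels, with 323 CPM ± 29.7 in MEC1 and 309 CPM ± 31.1 in JVM2 (log2 difference 0.066 ± 0.069, adjusted *P* = 0.386), whereas 2B17 cells had 1.48-fold more in MEC1 (adjusted *P* = 2.43e-07).

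Sequence before an annotated start of *CDK4* is shown because *MYC* rose in MEC1-2B17 while *CDK4* was not called. The *MYC* protein binds the E-box CACGTG, and *MYC* RNA is described below. Sequence before a start of *CDKN2C* is shown because this gene differed most between the lines among the inhibitors. The 250 bases before an annotated RefSeq start (GRCh38.p14) are written 5′ to 3′ on the strand of the gene, with CACGTG in capitals.
CDK4 (chr12:57752311-57752560, minus strand): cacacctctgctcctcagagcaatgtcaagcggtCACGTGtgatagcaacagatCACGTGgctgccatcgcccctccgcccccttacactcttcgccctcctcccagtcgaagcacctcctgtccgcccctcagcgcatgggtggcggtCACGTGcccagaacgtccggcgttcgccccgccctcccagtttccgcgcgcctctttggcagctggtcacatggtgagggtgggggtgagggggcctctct
CDKN2C (chr1:50969995-50970244, plus strand): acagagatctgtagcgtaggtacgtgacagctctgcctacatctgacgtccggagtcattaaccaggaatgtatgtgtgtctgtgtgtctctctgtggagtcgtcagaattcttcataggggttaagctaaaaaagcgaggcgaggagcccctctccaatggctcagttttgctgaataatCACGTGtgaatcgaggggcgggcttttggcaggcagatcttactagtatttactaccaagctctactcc
The *CDK4* window holds 3 E-boxes, beginning 216, 196 and 101 bases before the start, where 6.34% of 35116 such windows hold at least 1 and 0.0797% hold 3 or more. The *CDKN2C* window shown holds 1, at 69 bases, and its most upstream window (chr1:50960495-50960744) holds another, at 220 bases. Windows were found for 7 of the 9 members (12 windows), all but *CCND1* and *CCND2*, so these cyclins were not searched. The window of *RB1* (chr13:48476200-48476449) lies inside the gene (chr13:48303744-48599436) and not at its start. The windows shown for *CDK4* and *CDKN2C* also lie inside the GENCODE spans of their genes (chr12:57747727-57756013 and chr1:50960745-50974634). So do those of *CCND3* and *CDKN1B* and the *CDK6* window at chr7:92833960-92834209. These windows precede an annotated RefSeq start, not the outermost start of the gene. A further *CDKN2C* window inside the gene (chr1:50968456-50968705) held no CACGTG and 5 GC boxes (GGGCGG). Among the windows found, that of *CDK4* and both other *CDKN2C* windows held CACGTG and the rest did not. The E2F words TTTGGCGC, TTTCCCGC, TTTCGCGC and TTTGCCGC (found in 2.79% of windows) and the FOXO word GTAAACA (in 2.98%) had no match in these 12 windows. The GC box GGGCGG, present in 42.6% of windows, was found in windows of *CCND3*, *CDK4*, *CDK6*, *CDKN1B*, *CDKN2C* and *CDKN2D*. The CRE word TGACGT, in 7.10%, was found in windows of *CDK6* and *CDKN2C*. Both strands were searched, no match of one word in the windows shown overlapped one of another, and a match describes letters only.

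The INK4 inhibitor *CDKN2C* separated the lines in the opposite direction to the cyclins. It was measured at 70.3, 69.7 and 66.1 CPM in MEC1-CTRL and at 57.3, 52.5 and 54.1 CPM in MEC1-2B17. In JVM2 it rested on 27 to 51 counts per library, at 4.18, 4.66 and 5.40 CPM in CTRL and 4.16, 3.26 and 3.05 CPM in 2B17. Every MEC1 library was above every JVM2 library, and the 2B17 libraries were lower than the CTRL libraries in both lines without overlap. *CDKN2C* was 12.9-fold higher in MEC1-CTRL than in JVM2-CTRL (log2 3.69 ± 0.094, adjusted *P* = 1.39e-18) and 13.7-fold higher in 2B17 cells (adjusted *P* = 4.18e-18). It fell to 0.795 of its CTRL level in MEC1 (-0.33 ± 0.044, adjusted *P* = 5.60e-06), and in JVM2 the log2 fold change of -0.42 ± 0.19 was not called (adjusted *P* = 0.12). The difference between the lines was 0.093 ± 0.18 (adjusted *P* = 0.754).

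*CDKN2D*, which encodes another INK4 inhibitor, was lower in MEC1-2B17 and not called in JVM2. It was measured at 10.1, 9.26 and 10.3 CPM in MEC1-CTRL and at 7.81, 7.19 and 7.60 CPM in MEC1-2B17. In JVM2 it rested on 39 to 65 counts per library, at 4.97, 3.63 and 4.45 CPM in CTRL and 5.88, 5.28 and 4.97 CPM in 2B17. The MEC1 arms were separate and the JVM2 arms overlapped. It fell to 0.764 of its CTRL level in MEC1 (-0.39 ± 0.080, adjusted *P* = 0.000614), whereas JVM2 gave 0.32 ± 0.17 without a call (adjusted *P* = 0.197). The difference between the lines, -0.70 ± 0.18, passed the test (adjusted *P* = 0.00530). In CTRL cells *CDKN2D* was 2.02-fold higher in MEC1 than in JVM2 (adjusted *P* = 2.51e-07), and in 2B17 cells 1.24-fold (adjusted *P* = 0.029), a call lost with DESeq2 (adjusted *P* = 0.0533) and without MEC1-2B17 replicate 1 (0.0525), JVM2-2B17 replicate 2 (0.0638) or JVM2-2B17 replicate 3 (0.105), the highest of its alternatives, from 0.00152.

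*CDKN1B*, the inhibitor of cyclin E with CDK2, was measured at 50.2, 53.7 and 52.9 CPM in MEC1-CTRL and at 50.6, 45.8 and 47.7 CPM in MEC1-2B17. In JVM2 it was measured at 56.5, 74.0 and 72.6 CPM in CTRL and at 75.6, 85.9 and 83.5 CPM in 2B17. The MEC1 arms overlapped, and in JVM2 each 2B17 library was above each CTRL library, of which replicate 1 was the lowest. The log2 fold change in MEC1 was -0.12 ± 0.047 (adjusted *P* = 0.0455), and 8 of its 13 alternatives were past the threshold no longer, among them DESeq2 (adjusted *P* = 0.0837) and the removal of MEC1-CTRL replicate 2 (0.159) or 3 (0.0908) or of MEC1-2B17 replicate 2 (0.222) or 3 (0.141), with a range of 0.0228 to 0.222. In JVM2 it was 0.27 ± 0.096 (adjusted *P* = 0.0529, range 0.00646 to 0.18), called without JVM2-2B17 replicate 1 (0.0471) or 2 (0.0217), with RLE scaling (0.0476) and with the replicate block (0.00646), while without JVM2-CTRL replicate 1 it was 0.16 (adjusted *P* = 0.18). The difference between the lines, -0.39 ± 0.11, passed the test (adjusted *P* = 0.00873) and did so under all 19 alternatives. *CDKN1B* was 1.46-fold higher in JVM2-CTRL than in MEC1-CTRL (adjusted *P* = 1.63e-06) and 1.90-fold higher in 2B17 cells (adjusted *P* = 4.82e-10).

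*RB1*, the substrate of the cyclin D kinases, was measured at 38.4, 36.3 and 37.4 CPM in MEC1-CTRL and at 31.0, 31.2 and 28.9 CPM in MEC1-2B17. In JVM2 it was measured at 177, 207 and 206 CPM in CTRL and at 218, 215 and 233 CPM in 2B17. The MEC1-2B17 libraries were all below the MEC1-CTRL libraries, and the JVM2-2B17 libraries all above the JVM2-CTRL libraries. *RB1* fell to 0.813 of its CTRL level in MEC1 (-0.30 ± 0.050, adjusted *P* = 7.45e-05), and in JVM2 the log2 fold change of 0.18 ± 0.070 was not called (adjusted *P* = 0.0776, range 0.0114 to 0.27), though it was called without JVM2-2B17 replicate 2 (0.0114) and with the replicate block. Without JVM2-CTRL replicate 1 the value was 0.11 (adjusted *P* = 0.27). The difference between the lines was -0.47 ± 0.085 (adjusted *P* = 0.000231). In CTRL cells *RB1* was 5.92-fold higher in JVM2 than in MEC1 (log2 difference MEC1 minus JVM2 -2.57 ± 0.062, adjusted *P* = 5.23e-19), and in 2B17 cells 8.20-fold (adjusted *P* = 4.46e-20).

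**Figure D4:**
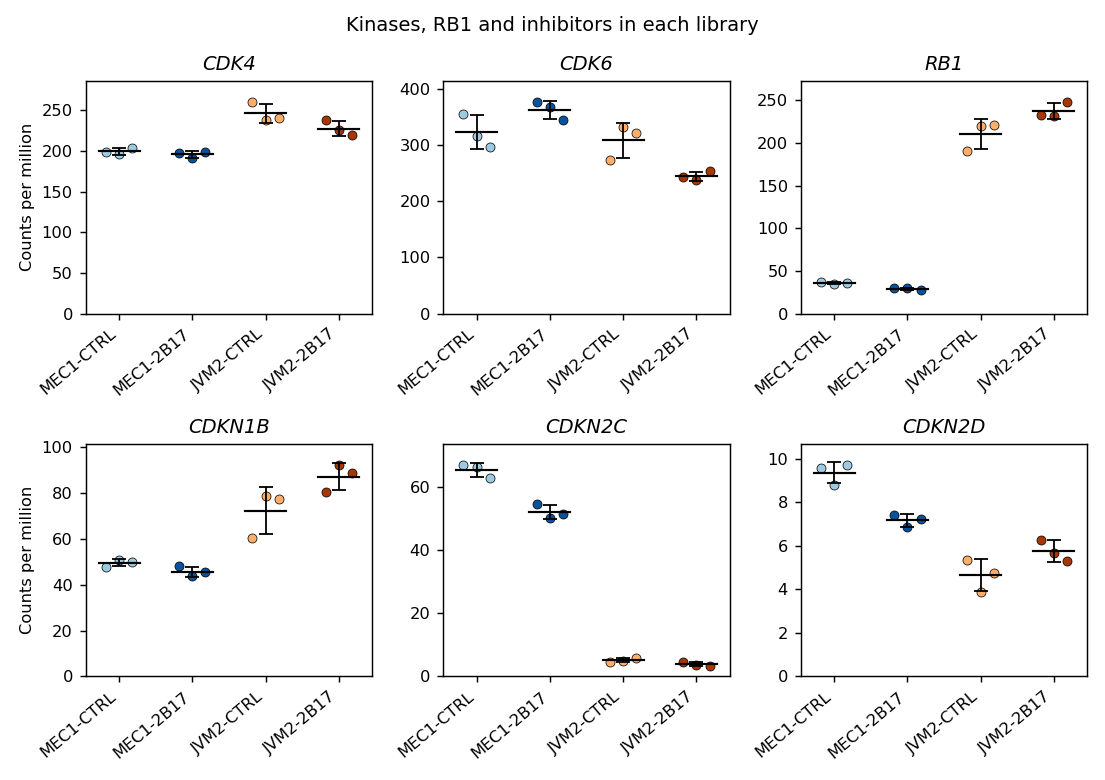
CPM of the kinases, *RB1* and the inhibitors in each library, on the scale common to the 12 libraries; points are libraries, lines the mean and bars the SD of 3 replicates. *RB1* is near 30 to 36 CPM in the MEC1 groups and 210 to 238 CPM in the JVM2 groups, and *CDKN2C* shows the reverse order, at 52.0 to 65.2 against 3.73 to 5.07 CPM.

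Per kilobase of exon, the members ranked differently in the lines. In MEC1-CTRL the order was *CDK4* (64.4 CPM per kb ± 1.37), *CDK6* (26.4 ± 2.43), *CDKN2C* (21.6 ± 0.762), *CCND3* (6.23 ± 0.069), *CDKN2D* (6.22 ± 0.332), *RB1* (5.52 ± 0.166), *CDKN1B* (5.37 ± 0.18), *CCND2* (2.79 ± 0.072) and *CCND1* (2.73 ± 0.26). In this order *CCND3* and *CDKN2D*, *RB1* and *CDKN1B*, and *CCND2* and *CCND1* were neighbours that differed by less than their spread. In JVM2-CTRL the order was *CCND1* (94.6 CPM per kb ± 2.11), *CDK4* (79.6 ± 3.79), *CCND2* (62.1 ± 2.68), *RB1* (32.7 ± 2.74), *CDK6* (25.3 ± 2.54), *CDKN1B* (7.82 ± 1.11), *CCND3* (7.17 ± 0.151), *CDKN2D* (3.09 ± 0.488) and *CDKN2C* (1.68 ± 0.218), where *CDKN1B* and *CCND3* did not differ beyond their spread. In MEC1-2B17, *CCND1* and *CCND2* were last at 1.18 CPM per kb each. The summed level of *CDK4* and *CDK6* was 90.8 CPM per kb ± 2.04 in MEC1-CTRL, 92.9 ± 1.62 in MEC1-2B17, 105 ± 1.26 in JVM2-CTRL and 93.5 ± 2.62 in JVM2-2B17. Every JVM2-CTRL library lay above every library of the other groups in this sum. The summed *CDKN1B*, *CDKN2C* and *CDKN2D* stood at 33.2 ± 0.544, 26.9 ± 1.17, 12.6 ± 0.959 and 14.5 ± 0.393 CPM per kb in the same groups. D-type cyclin RNA per kilobase was thus below that of the kinases and of these inhibitors in MEC1 and above both in JVM2. The sum leaves out *CDKN1A*, which was higher in JVM2-CTRL than in MEC1-CTRL (edgeR log2 difference MEC1 minus JVM2 -2.34 ± 0.058, adjusted *P* = 8.20e-19).

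**Figure D5:**
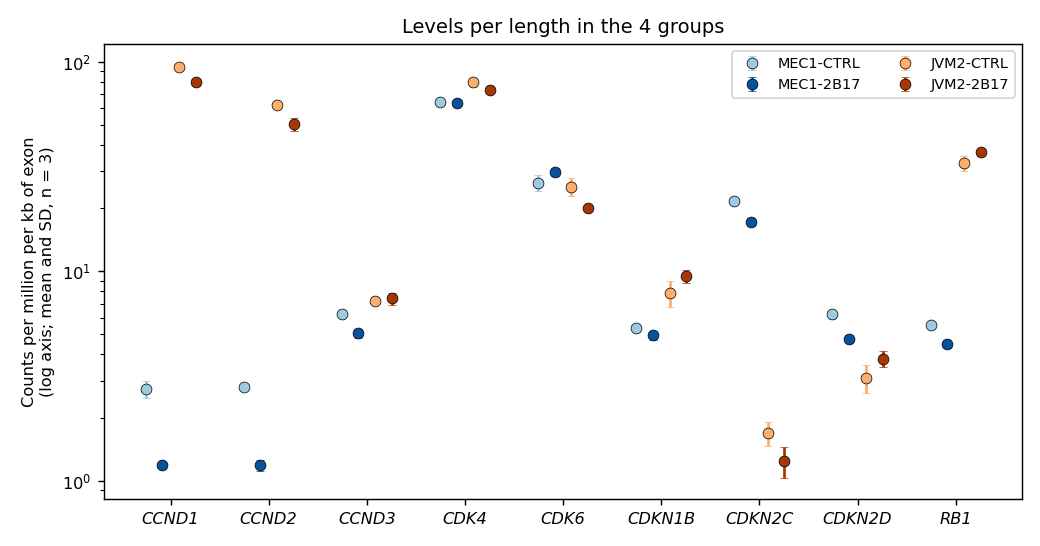
Level of each member per kilobase of exon (CPM per kb, log axis) in the 4 groups, as the mean and SD of 3 libraries. *CCND1* spans 1.18 CPM per kb in MEC1-2B17 to 94.6 in JVM2-CTRL, whereas *CDK4* stays between 63.2 and 79.6.

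On hg38 the members lie apart, with 3 of them on chromosome 12. *CCND1* is at chr11:69641156-69654474 and *CCND2* at chr12:4269771-4305353, both on the plus strand, and *CCND3* is at chr6:41934934-42050357 on the minus strand. *CDK4* is at chr12:57747727-57756013 and *CDK6* at chr7:92604921-92836573, both on the minus strand. *CDKN1B* (chr12:12685498-12722369), *CDKN2C* (chr1:50960745-50974634) and *RB1* (chr13:48303744-48599436) are on the plus strand and *CDKN2D* (chr19:10566460-10569059) is on the minus strand. Among the genes tested within 1 Mb of *CCND1*, 5 of 10 were higher and 2 lower in MEC1-CTRL than in JVM2-CTRL, with log2 differences from -3.29 to 3.003 and a median of 0.24, against -5.12 for *CCND1* itself. Around *CCND2*, 6 of 11 were higher and 4 lower, from -2.05 to 1.13. Around *RB1*, none of 14 was higher and 12 were lower in MEC1-CTRL, from -6.62 to 0.024 with a median of -0.91, so the direction of *RB1* was that of most genes beside it. Some annotated genes share ground with members on the other strand, namely *LTO1* with *CCND1*, *TSPAN31* and *MARCHF9* with *CDK4*, *GPR19* with *CDKN1B* and *RCBTB2* with *RB1*, and since strand-specific counting is not stated, their reads may not be told apart where they overlap. The log2 fold change of *LTO1* was -0.077 in MEC1 and 0.16 in JVM2, and that of *RCBTB2* was -0.39 and -0.11.

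Other inhibitors of cyclin-dependent kinases were measured beside the members. *CDKN1A*, a target of p53 that inhibits several cyclin kinases and helps assemble cyclin D with CDK4, stood at 71.3 CPM ± 4.37 in MEC1-CTRL and 38.3 CPM ± 0.639 in MEC1-2B17 (log2 fold change -0.90 ± 0.048, adjusted *P* = 2.54e-11). In JVM2 it stood at 321 CPM ± 2.23 and 291 CPM ± 23.0 and was not called (-0.14 ± 0.063, adjusted *P* = 0.111). *CDKN2A*, an INK4 gene, was not called in either line, with 6.67 and 7.06 CPM in the MEC1 arms and 10.8 and 12.3 CPM in the JVM2 arms. *CDKN1C* had 1 to 4 counts in the MEC1 libraries and 2 to 8 in the JVM2 libraries, and *CDKN2B* had 2 to 12 in MEC1 and was not analysed in JVM2, so neither was tested. Of this list, 1 of 2 tested genes was called in MEC1 and 0 of 2 in JVM2 by edgeR or DESeq2 (1 at an unadjusted *P* under 0.05). Among all genes tested, edgeR called 20.0% higher and 21.6% lower in MEC1, and 14.1% and 15.3% in JVM2.

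Among the 12 genes of the RB1 and E2F module, 2 were higher and 5 lower in MEC1-2B17, and 1 was higher and 5 lower in JVM2-2B17. The shares over all genes tested were 20.0% higher and 21.6% lower in MEC1, and 14.1% and 15.3% in JVM2. *E2F7*, a repressor of E2F targets, fell the most in MEC1, from 28.6 CPM ± 0.676 to 12.7 CPM ± 0.133 (-1.17 ± 0.055, adjusted *P* = 4.74e-12), and was also lower in JVM2 (51.7 to 37.0 CPM, -0.48 ± 0.078, adjusted *P* = 0.000555). *E2F5*, which works with the RB1 relatives p107 and p130, rose the most in MEC1 (36.1 to 46.4 CPM, 0.36 ± 0.047, adjusted *P* = 4.19e-06). In JVM2 the largest fall was that of *E2F2*, an activator (69.5 to 48.7 CPM, -0.51 ± 0.069, adjusted *P* = 0.000131), and the only rise was that of *RBL2*, an *RB1* relative (73.2 to 86.9 CPM, 0.25 ± 0.060, adjusted *P* = 0.00786). The median of the list was -0.085 in MEC1 and -0.14 in JVM2.

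Of the 8 genes of cyclin E, cyclin A, CDK2 and their activators, 1 was higher and 4 lower in MEC1-2B17, and 0 were higher and 2 lower in JVM2-2B17 by edgeR and by DESeq2, with 1 higher at an unadjusted *P* under 0.05. By edgeR, 20.0% of all genes tested were higher and 21.6% lower in MEC1, and 14.1% and 15.3% in JVM2. *CCNE2*, a cyclin E gene, fell from 31.3 to 23.9 CPM in MEC1 (-0.39 ± 0.060, adjusted *P* = 3.56e-05), and *CCNE1*, the other, fell from 28.9 to 21.4 CPM in JVM2 (-0.43 ± 0.10, adjusted *P* = 0.00681) and from 40.7 to 33.7 CPM in MEC1 (-0.27 ± 0.046, adjusted *P* = 9.44e-05). *CDC25A*, a phosphatase that activates CDK2, rose in MEC1 (78.2 to 87.1 CPM, 0.16 ± 0.040, adjusted *P* = 0.00363) and fell in JVM2 (57.2 to 45.8 CPM, -0.32 ± 0.072, adjusted *P* = 0.00503), so that the lines differed by the test of the difference (0.48 ± 0.079, adjusted *P* = 8.72e-05).

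Genes of DNA replication, which E2F factors switch on, moved both ways in MEC1. Of 17, 3 were higher and 7 lower in MEC1-2B17, and 1 was higher and 5 lower in JVM2-2B17. Beside this, 20.0% of all genes tested were higher and 21.6% lower in MEC1, and 14.1% and 15.3% in JVM2. *CDT1*, a licensing factor, rose from 80.3 to 115 CPM in MEC1 (0.52 ± 0.046, adjusted *P* = 2.76e-08) and fell from 77.0 to 61.1 CPM in JVM2 (-0.33 ± 0.074, adjusted *P* = 0.00529), a difference between the lines of 0.86 ± 0.091 (adjusted *P* = 3.41e-07). *RRM2*, a subunit of ribonucleotide reductase, fell in both, from 273 to 229 CPM in MEC1 (-0.26 ± 0.033, adjusted *P* = 4.10e-06) and from 434 to 353 CPM in JVM2 (-0.30 ± 0.051, adjusted *P* = 0.000812). In JVM2 the helicase subunit *MCM3* rose from 283 to 327 CPM (0.21 ± 0.055, adjusted *P* = 0.0118) and the E2F-regulated factor *MYBL2* fell from 256 to 192 CPM (-0.42 ± 0.094, adjusted *P* = 0.00529).

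Of 8 mitotic genes, 2 were higher and 3 lower in MEC1-2B17. Shares over all genes tested were 20.0% higher and 21.6% lower in MEC1, and 14.1% and 15.3% in JVM2. *BUB1*, a checkpoint kinase, rose from 153 to 178 CPM (0.22 ± 0.036, adjusted *P* = 6.35e-05), and *MKI67*, the proliferation marker, fell from 436 to 362 CPM (-0.27 ± 0.033, adjusted *P* = 2.01e-06). In JVM2, edgeR and DESeq2 each called 0 of these 8 genes and 2 were lower at an unadjusted *P* under 0.05, with log2 fold changes from -0.26 to 0.12, and *MKI67* stood at 393 CPM ± 22.2 in CTRL and 327 CPM ± 79.1 in 2B17.

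The protein levels of the D-type cyclins and of the *CDKN1B* product are set largely by degradation, which RNA does not show. For this list and the next, the shares over all genes tested were 20.0% higher and 21.6% lower in MEC1, and 14.1% and 15.3% in JVM2. Of 7 genes for the breakdown of the *CDKN1B* product, 1 was higher and 1 lower in MEC1-2B17 and 2 were higher in JVM2-2B17. *CKS1B*, a cofactor of the SKP2 ligase, rose in MEC1 (96.9 to 111 CPM, 0.19 ± 0.037, adjusted *P* = 0.000263), *UBAC1*, a subunit of another ligase, fell there (86.0 to 61.5 CPM, -0.48 ± 0.038, adjusted *P* = 6.05e-09), and *RBX1*, a subunit of cullin ligases, rose in JVM2 (57.9 to 76.6 CPM, 0.40 ± 0.081, adjusted *P* = 0.00256). Of 7 genes for the breakdown of D-type cyclins, 6 were tested, with 1 higher and 1 lower in each line. *AMBRA1*, the receptor that brings D-type cyclins to their ubiquitin ligase, fell in MEC1 (79.3 to 66.5 CPM, -0.25 ± 0.041, adjusted *P* = 5.48e-05) and was not called in JVM2 (81.4 and 83.8 CPM, adjusted *P* = 0.641), a difference between the lines of -0.29 ± 0.071 (adjusted *P* = 0.00327). *FBXO31* rose in MEC1 (32.2 to 37.3 CPM, 0.21 ± 0.046, adjusted *P* = 0.00101), and in JVM2 *FBXO4* rose (15.6 to 21.6 CPM, 0.47 ± 0.13, adjusted *P* = 0.0166) and the kinase *GSK3A* fell (26.1 to 18.1 CPM, -0.52 ± 0.18, adjusted *P* = 0.0454).

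Among transcription factors known to act on the members, 1 of 5 tested was higher and 2 lower in MEC1-2B17, and 0 of 4 were called in JVM2-2B17 by edgeR, by DESeq2 or at an unadjusted *P* under 0.05. Of all genes tested, edgeR called 20.0% higher and 21.6% lower in MEC1, and 14.1% and 15.3% in JVM2. *MYC*, a driver of cell growth that acts on *CCND2* and *CDK4*, rose in MEC1 from 294 CPM ± 4.97 to 415 CPM ± 16.7 (0.50 ± 0.036, adjusted *P* = 2.02e-09) and stood at 154 CPM ± 4.15 and 171 CPM ± 21.1 in JVM2 (0.16 ± 0.081, adjusted *P* = 0.166), with a difference between the lines of 0.35 ± 0.090 (adjusted *P* = 0.00548). *BCL6*, a germinal centre repressor, fell in MEC1 from 4.07 to 2.08 CPM (-0.97 ± 0.14, adjusted *P* = 1.52e-05) and was not analysed in JVM2, and *SOX11*, a factor of mantle cell lymphoma, was not analysed in either line. *FOXO3*, which can switch on *CDKN1B* and was singled out after its values were seen, stood at 1.61 CPM in MEC1-CTRL and 121 CPM in JVM2-CTRL, and was not called between the arms of either line.

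The genes whose profile over the 12 libraries lay closest to that of a D-type cyclin were found by the root mean square difference of centred log2 CPM among 11525 genes, as a description. For *CCND1* they were *ZNF93* (0.217), *GLDC* (0.253) and *CKAP4* (0.253), and for *CCND2* they were *GLDC* (0.185), *ACTN1* (0.206) and *TIMP1* (0.206). For *CCND3* they were *AMBRA1* (0.0468), *CPT2* (0.0615) and *COX6B1* (0.0625). The closest genes to *CCND1* and *CCND2* share their large step between the lines, which the 12 libraries of 2 lines cannot separate from any other difference between them.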

How the data were processed

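Total RNA of 3 biological replicates per group was sequenced with paired ends after removal of ribosomal RNA. Per the labels and the study's methods, the authors trimmed reads with Trimmomatic, aligned them to hg38 with TopHat2 2.0.14 and counted reads per Ensembl gene with HTSeq. The annotation version and strand setting of the counting are not given in the sources used here. The deposited unit is raw counts per gene, without normalization, in 1 table per line, each listing genes with at least 10 counts over its 6 libraries. The 12 columns of the authors' normalized values and the columns of their own comparisons (fold changes, mean abundance and *P*-values from edgeR and DESeq2) were not used.

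Each line was fitted with edgeR 4.0.16 in R 4.3.3 (TMM scaling, filterByExpr with a minimum count of 10, quasi-likelihood F-test, Benjamini-Hochberg adjustment over all genes tested, called below 0.05). Standard errors come from the F statistic and 95% confidence intervals from the moderated degrees of freedom. Line differences and the interaction were contrasts of one fit of all 12 libraries over genes in both tables, with CPM on that fit's scale where lines are compared. The study names Genome Québec and the CHU de Québec Research center as sequencing sites, without saying which libraries each handled. Line, depth, any difference of site and any processing of one table apart from the other cannot be told apart. Replicates are stated to be biological, and whether they were separate cultures throughout is not. *P*-values thus set each difference against the spread between these samples only. The study describes no independent transfections of an arm, so variation between transfections is not covered. Positions, exon unions and overlaps came from GENCODE 44 on the same build, motifs from RefSeq windows. Shares were compared with scipy 1.17.1, and figures drawn with matplotlib 3.10.9. The fits were tested on simulated data.

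The members and gene lists were chosen with earlier results of these data known. Named are the 9 members, *UGT2B17*, *MYC*, *SOX11*, all other inhibitor genes listed, the genes closest in profile to each D-type cyclin, and, from each other list and line, the called gene with the largest rise and the largest fall with no overlap between arms and a mean log2 CPM of 1 or more. Alternatives were DESeq2 1.42.0, calls shared by edgeR and DESeq2, scaling by RLE or by library size only, omission of the filter, a minimum of 10 counts per library, a replicate block, removal of each replicate in turn and, for shares, other gene lengths. Intervals on CPM are not given, and SDs cover the spread of 3 libraries. A further cell type marker is not reported here.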

Additional observations from a re-analysis of the deposited data

Results flagged for a closer look

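The change between arms differed between the lines, by the interaction test, for 7 of the 9 members, against 32.0% of 15130 genes tested. The log2 fold change in MEC1 minus that in JVM2 was -0.95 for *CCND1*, -0.93 for *CCND2* and -0.35 for *CCND3*. It was 0.50 for *CDK6*, which was higher in MEC1-2B17 and lower in JVM2-2B17. It was -0.39 for *CDKN1B*, -0.70 for *CDKN2D* and -0.47 for *RB1*, 3 genes lower in MEC1-2B17 than in MEC1-CTRL whose mean was higher in JVM2-2B17 than in JVM2-CTRL, though none of these was called in JVM2. The MEC1 arms differ in construct and antibiotic and the JVM2 arms do not, so the line and the kind of control cannot be told apart in these differences.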

How the results depend on the processing

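The called changes of *CCND1*, *CCND2*, *CCND3*, *CDKN2C*, *CDKN2D* and *RB1* in MEC1 and of *CCND1*, *CCND2* and *CDK6* in JVM2 kept their direction and their side of the threshold under all 13 alternatives, and the 7 line differences between arms under all 19. Correlations of deviations between libraries of the same replicate number ran from -0.042 to 0.040 in MEC1 and -0.0059 to 0.117 in JVM2. Between different numbers they ran from -0.075 to 0.085 and from -0.117 to 0.062. The same-number values thus lay within the others in MEC1. In JVM2 those of replicates 1 (0.086) and 2 (0.117) lay above them, and so few correlations cannot settle whether the samples were paired. With the replicate block, 5 members were called in JVM2 in place of 3, *CDKN1B* (0.28, adjusted *P* = 0.00646) and *RB1* (0.18, adjusted *P* = 0.0393) being added as higher, and 7 in MEC1 in place of 8. With 1 replicate left out, 3 to 5 members were called in JVM2 and 6 to 8 in MEC1.

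Leaving out 1 library turned the sign of values that were not called in the main fit: *CCND3* in JVM2 (-0.0027 to 0.099), the line difference of *CDKN2C* (-0.0052 to 0.25) and *CDK6* between the CTRL groups (-0.0033 to 0.13). With the longest transcript as length, the differences in share were -5.42 points for *CCND1*, -5.96 for *CCND2* and 11.4 for *CCND3* in MEC1, and -0.27 for *CCND1* and 1.95 for *CCND3* in JVM2. With no division by length, they were -5.49 for *CCND1* and -9.88 for *CCND2* in MEC1. With 1 replicate left out, the *CCND1* share difference in JVM2 ran from -1.19 to 1.26 points and that of *CCND2* from -2.21 to 0.027. Scaling by library size only moved the median of all genes between the CTRL groups from 0.037 to 0.20 on the log2 scale, lost *CCND3* and gained *CDK6* (0.23) between the CTRL groups, and lost *CDK4* between the 2B17 groups. JVM2 has fewer counts, with 27 to 65 per library for *CDKN2C* and *CDKN2D*, so their wide intervals there limit what could be detected.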
